A study of Mus musculus with 12 samples.

Results

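The intestinal brush border was followed here through 10 genes for its structural proteins: Vil1, Pls1, Espn, Eps8, Cdhr2, Cdhr5, Ush1c, Myo7b, Myo1a and Ezr. They were taken by symbol from the deposited expression table, whose 55421 genes each had a value in every library. Bulk RNA-seq had been done on total RNA of intestinal epithelial cells from the jejunum, the middle part of the small intestine, of mice. Samples labelled Ctrl were compared with samples labelled Fzd5KO, Fzd5 being the gene of a receptor of the Frizzled family that receives Wnt signals at the cell surface, at time points labelled day 1 and day 3. Each of the 4 groups (Ctrl day 1, Fzd5KO day 1, Ctrl day 3 and Fzd5KO day 3) held 3 libraries. The deletion and any Cre driver, the strain, age and sex of the animals, and the event that starts the count of days are absent from the labels. They also do not tie replicates to separate animals, so the p-values reflect library-to-library spread that may be technical.

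A microvillus is a finger of membrane held up by a bundle of parallel actin filaments, and the brush border is the dense carpet of microvilli on the apical face of an absorptive enterocyte. Villin, plastin 1 and espin cross-link the actin filaments into the bundle. Protocadherins at the microvillar tips bind those of neighbouring microvilli and so pack the carpet, with a scaffold and a myosin attached to their tails. Ezrin and the motor myosin 1a tie the bundle to the membrane along its sides. The regulatory sequence of Vil1 is widely used to drive transgenes in the gut epithelium, and Wnt signals are known for sustaining the crypts, where the microvilli of dividing cells are still short.

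Levels are TPM, a share of all transcripts scaled to a fixed total, which divide by transcript length and can be compared between genes. Changes between groups are differences of mean log2(TPM + 1), given ± SE, and low genes appear to change less on this scale than they do in TPM. A gene counted as higher or lower where limma's p was under 0.05 after Benjamini-Hochberg adjustment across the 14510 genes tested. All 10 genes were tested. Since TPM keeps no depth, the counting error behind each value was unknown.

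Fzd5 itself lay at 43.5, 49.4 and 46.8 TPM in the Ctrl libraries of day 1 and at 31.9, 33.1 and 33.1 TPM in the Fzd5KO libraries. At day 3 the values were 68.2, 65.9 and 60.5 TPM against 39.7, 37.8 and 38.3. The Fzd5KO libraries were lower on both days without overlap, by −0.50 ± 0.055 (limma adjusted p = 0.000151) and −0.73 ± 0.055 (limma adjusted p = 4.42e-07), and none was near 0. Which part of the transcript a deletion removed is not given, so the remaining level cannot be read against it. Epithelium markers (Epcam, Cdh1, Cldn7, Krt8 and Krt18) summed to between 2924 and 4268 TPM in the 12 libraries. The sums of fibroblast, endothelial and smooth muscle markers stayed at or below 10.4, 1.69 and 5.22 TPM. The small RNAs 7SL and 7SK took 19.7 to 27.2% of all TPM.

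The stretch before the transcription start is shown for the 3 genes with the largest day 3 difference between genotypes that have only 1 promoter entry (Vil1, Pls1 and Ezr) and for Ush1c, which had the smallest. The sequences are RefSeq's, on GRCm38.p6, 250 bases long, 5′ to 3′ in the direction of the gene, ending at the base before the start site. Capitals mark matches to the GC box GGGCGG on either strand and, in Vil1, to the CArG box, the site that serum response factor is known to bind.
Vil1, chr1:74409134-74409383, plus strand: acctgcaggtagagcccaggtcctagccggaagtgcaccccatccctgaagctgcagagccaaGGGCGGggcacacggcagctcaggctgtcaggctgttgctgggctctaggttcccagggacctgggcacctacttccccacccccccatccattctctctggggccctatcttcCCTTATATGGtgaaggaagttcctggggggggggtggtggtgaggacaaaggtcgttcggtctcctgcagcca
Pls1, chr9:95845280-95845529, minus strand: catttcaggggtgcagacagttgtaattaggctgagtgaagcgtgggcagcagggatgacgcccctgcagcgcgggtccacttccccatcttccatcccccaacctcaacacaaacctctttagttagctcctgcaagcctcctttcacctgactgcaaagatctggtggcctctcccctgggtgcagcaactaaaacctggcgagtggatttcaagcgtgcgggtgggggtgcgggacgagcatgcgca
Ezr, chr17:6782781-6783030, minus strand: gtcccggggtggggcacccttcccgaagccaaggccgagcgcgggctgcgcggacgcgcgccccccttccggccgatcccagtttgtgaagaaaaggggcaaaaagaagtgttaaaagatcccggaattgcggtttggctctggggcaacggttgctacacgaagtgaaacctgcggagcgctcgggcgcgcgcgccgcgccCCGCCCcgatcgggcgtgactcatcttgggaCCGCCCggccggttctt
Ush1c, chr7:46238491-46238740, minus strand: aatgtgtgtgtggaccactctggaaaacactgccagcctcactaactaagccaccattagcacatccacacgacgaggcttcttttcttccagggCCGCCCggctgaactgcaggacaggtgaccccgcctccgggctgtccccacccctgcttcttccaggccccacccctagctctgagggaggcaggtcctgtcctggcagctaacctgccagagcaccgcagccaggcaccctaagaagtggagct
Entries were found for 8 of the 10 genes, all but Eps8 and Myo7b, with 3 for Espn and so 10 in all. Searches ran over 300 bases, from 250 before to 50 after the start. The GC box lay in 5 of these 10 windows, in 4 genes, against 35.7% of all 32851 windows in the RefSeq table. The CArG box was found in Vil1, 73 bases before the start, and in 1.63% of all windows. The CDX2 motif CCATAAA, named for an intestinal transcription factor, was found in 1 window, of Espn, and in 2.75% of all windows. Neither CAAAGTNCA, for the enterocyte factor HNF4, nor ATCAAAG, for the TCF and LEF factors of the Wnt pathway, was found in any of the 10 windows, and they lie in 1.41% and 3.73% of all. TATAAA was also in 0 of the 10, against 13.6%. The first pair of motifs can overlap, and both strands were searched for each. A match is a description of letters in a window, and its absence says only that these letters are not there.

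All 10 genes were abundant. Their mean level over the libraries stood above that of 84.2% of tested genes for Espn, the lowest of them, and of 99.5% for Vil1, the highest. Vil1 ranked first among the 10 in every library, and Ezr, Myo7b, Ush1c, Eps8 and Espn held ranks 6, 7, 8, 9 and 10 in every library. Myo1a, Pls1, Cdhr2 and Cdhr5 exchanged ranks 2 to 5. Replicates lay close together, with coefficients of variation within a group between 0.378 and 8.73%. The order of the group means was the same for all 10 genes: Fzd5KO day 3 highest, then Ctrl day 1, then Fzd5KO day 1, and Ctrl day 3 lowest. Neighbours in that order did not overlap between libraries, except in Ush1c, where the lower 3 groups overlapped, and in Espn, where the 2 day 1 groups did.

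**Figure D1:**
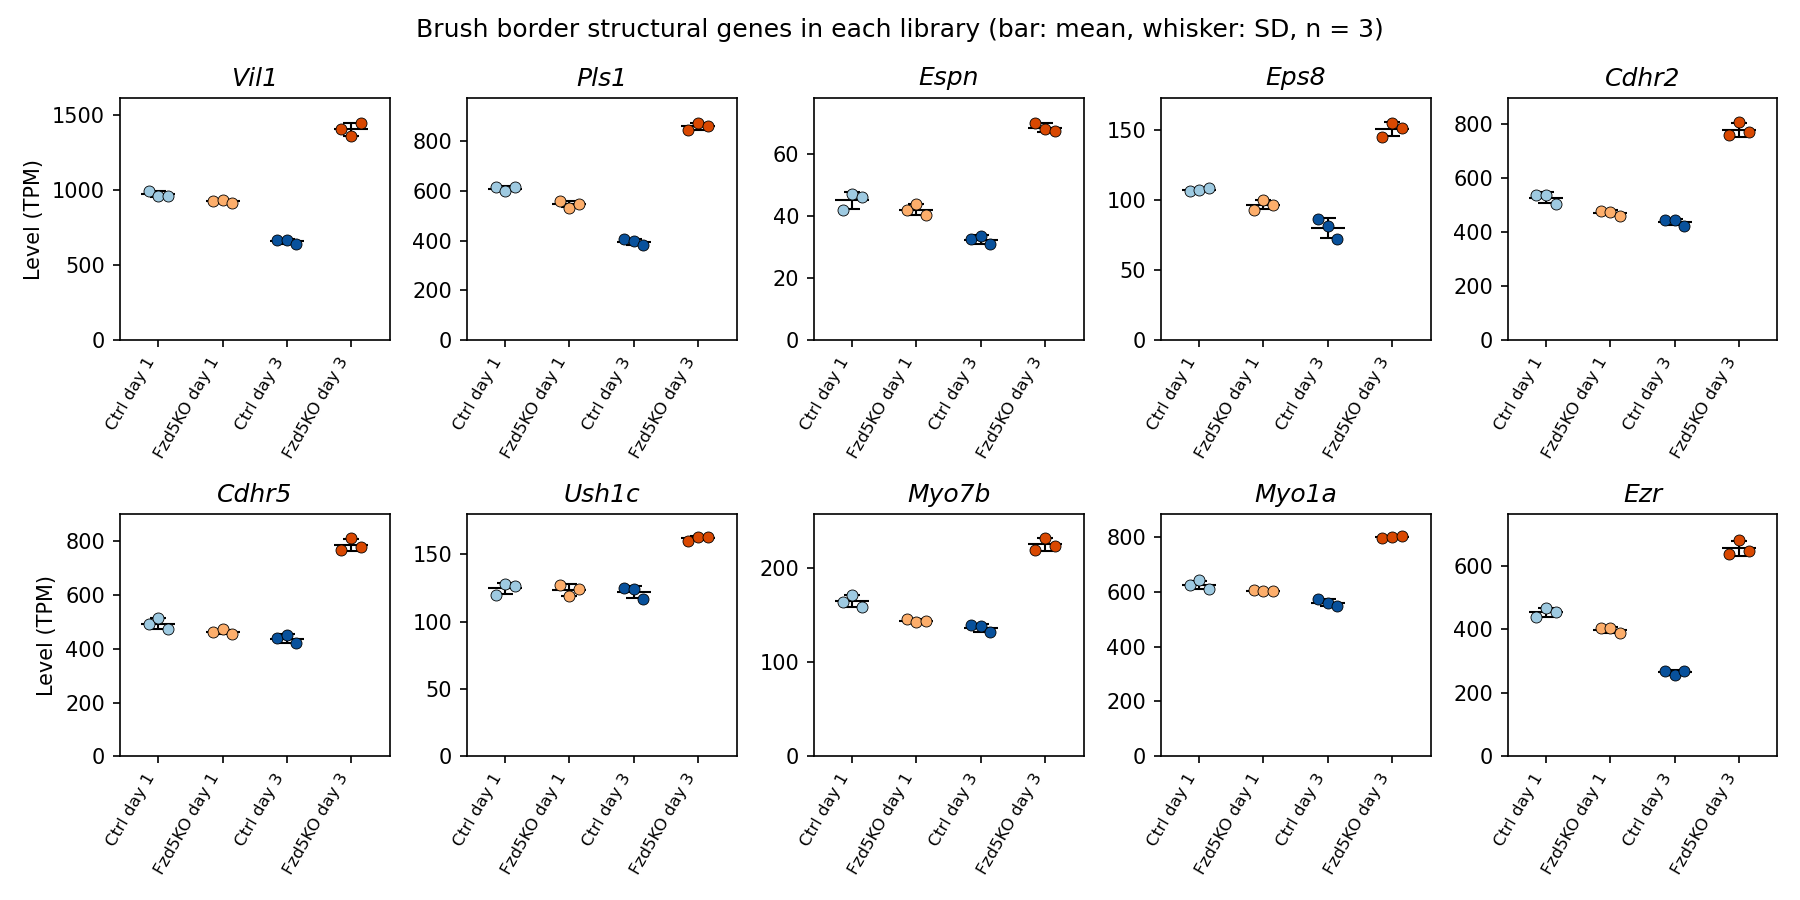
Level in TPM (vertical axis, linear from 0) of each of the 10 genes in the 3 libraries of each group (points), with the group mean (bar) and SD (whiskers). In each panel the Fzd5KO day 3 libraries are the highest, as for Vil1 at 1357 to 1444 TPM, and the Ctrl day 3 mean is the lowest.

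Among the genes of the actin bundle, Vil1 encodes villin, which bundles and, at high calcium, severs actin filaments (chromosome 1, 74409376 to 74435559, GRCm38, the assembly also called mm10). It lay at 993, 959 and 959.6 TPM in Ctrl and 929, 929.8 and 909.9 TPM in Fzd5KO at day 1. At day 3 it lay at 668, 666 and 639.5 TPM in Ctrl and 1408, 1357 and 1444 TPM in Fzd5KO. The day 3 genotypes were far apart and the day 1 genotypes close but not overlapping. The Fzd5KO mean was 2.13 times the Ctrl mean at day 3, a change of 1.09 ± 0.032 (limma adjusted p = 2.33e-10), and at day 1 the difference was −0.072 ± 0.032 (limma adjusted p = 0.117). Pls1, for the filament bundler plastin 1, followed (chromosome 9, 95752642 to 95845311). Its libraries stood at 614, 599 and 614 TPM in Ctrl and 558, 533 and 547 TPM in Fzd5KO at day 1. They stood at 405, 400.4 and 381 TPM in Ctrl and 846.5, 874 and 862 TPM in Fzd5KO at day 3. The change was 1.12 ± 0.032 at day 3 (2.177 times, limma adjusted p = 1.75e-10), and at day 1 the difference was −0.16 ± 0.032 (limma adjusted p = 0.00512).

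Espn, for espin, a bundler that lengthens microvilli and is also known from the stereocilia of the inner ear, was the least abundant of the 10 (chromosome 4, 152120331 to 152152371). Its day 3 libraries lay at 32.5, 33.7 and 30.9 TPM in Ctrl and 70.1, 68.2 and 67.4 TPM in Fzd5KO, after 42.1, 47.1 and 46.2 TPM against 42.1, 43.8 and 40.3 TPM at day 1. The day 3 mean was 2.12 times as high in Fzd5KO (1.06 ± 0.052, limma adjusted p = 1.27e-08), while the day 1 libraries overlapped. Eps8 encodes a capping and bundling protein of the microvillar tip (chromosome 6, 137477245 to 137654876). It lay at 106.9, 107 and 109 TPM in Ctrl and 93.3, 100.01 and 96.9 TPM in Fzd5KO at day 1, and at 86.3, 81.5 and 72.5 TPM against 145, 155 and 151 TPM at day 3. The day 3 change was 0.91 ± 0.056 (1.88 times, limma adjusted p = 8.65e-08), and the day 1 difference of −0.15 ± 0.056 did not pass (limma adjusted p = 0.0679). Its Ctrl day 3 libraries had the highest coefficient of variation of all 10 genes and groups (8.73%).

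The intermicrovillar adhesion complex was represented by 4 genes. Cdhr2 and Cdhr5 encode the protocadherins that link the tips of adjacent microvilli. Cdhr2 (chromosome 13, 54701461 to 54736662) lay at 539, 539 and 504 TPM in Ctrl and 478, 474 and 461 TPM in Fzd5KO at day 1, and at 443, 444 and 422.5 TPM against 758, 808 and 772 TPM at day 3. Cdhr5 (chromosome 7, 141269083 to 141276786) lay at 491, 514 and 474 TPM against 462, 472 and 456 TPM at day 1. At day 3 it lay at 440.1, 453 and 420.0 TPM in Ctrl and 769, 811 and 777 TPM in Fzd5KO. These partners were close in level in each group, and neither overlapped between genotypes on either day. Their day 3 changes were 0.83 ± 0.038 for Cdhr2 (1.78 times, limma adjusted p = 6.74e-09) and 0.84 ± 0.039 for Cdhr5 (1.80 times, limma adjusted p = 8.07e-09). At day 1 Cdhr2 was lower by −0.16 ± 0.038 (limma adjusted p = 0.0111), and Cdhr5 differed by −0.089 ± 0.039 (limma adjusted p = 0.117).

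Myo7b, for the motor that carries the complex to the tips (chromosome 18, 31959234 to 32036961), lay at 164, 171 and 159 TPM in Ctrl and 146, 142 and 143 TPM in Fzd5KO at day 1. At day 3 it lay at 139, 139 and 132 TPM in Ctrl and 219, 232 and 223 TPM in Fzd5KO. It was higher at day 3 by 0.72 ± 0.037 (1.65 times, limma adjusted p = 2.27e-08) and lower at day 1 by −0.19 ± 0.037 (limma adjusted p = 0.0043). Ush1c, for harmonin, the scaffold that joins the protocadherin tails to the motor, moved least (chromosome 7, 46195350 to 46238503). Its libraries lay at 119.8, 128 and 126 TPM in Ctrl day 1, 127, 119 and 124 TPM in Fzd5KO day 1, 125, 124.5 and 117 TPM in Ctrl day 3 and 160.02, 162 and 163 TPM in Fzd5KO day 3. The Fzd5KO day 3 libraries stood apart and the other 9 overlapped. The day 3 change was 0.41 ± 0.040 (1.33 times, limma adjusted p = 4.16e-06), and at day 1 the difference was −0.015 ± 0.040 (limma adjusted p = 0.811). Among other partners of the complex, Anks4b, for a scaffold that binds harmonin, lay at 43.5, 41.2 and 41.3 TPM in Ctrl and 75.3, 74.3 and 77.1 TPM in Fzd5KO at day 3, 0.83 ± 0.043 higher (limma adjusted p = 1.96e-08). Calml4, for a light chain of the motor, differed by 0.091 ± 0.042 at day 3 (limma adjusted p = 0.0792).

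The linkers of the bundle to the membrane gave both the largest and the second smallest day 3 change of the 10 genes. Ezr, for ezrin, which joins membrane proteins to actin when phosphorylated (chromosome 17, 6738041 to 6782784), lay at 437, 467 and 455 TPM in Ctrl and 404, 403 and 387 TPM in Fzd5KO at day 1. At day 3 its libraries lay at 268, 255 and 269 TPM in Ctrl and 636, 682 and 645 TPM in Fzd5KO. It was 2.48 times as high in Fzd5KO at day 3 (1.31 ± 0.039, limma adjusted p = 2.62e-10), and lower at day 1 by −0.19 ± 0.039 (limma adjusted p = 0.00622). Myo1a, for a monomeric myosin that forms lateral bridges between the bundle and the membrane (chromosome 10, 127705170 to 127720940), lay at 623, 641 and 609.8 TPM against 606, 601 and 602 TPM at day 1. At day 3 the values were 575, 557 and 549 TPM in Ctrl and 795, 798 and 801 TPM in Fzd5KO. Its day 3 change was 0.51 ± 0.028 (1.42 times, limma adjusted p = 3.14e-08), and its day 1 difference was −0.051 ± 0.028 (limma adjusted p = 0.199).

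At day 3 all 10 genes were higher in Fzd5KO, and in all 10 the libraries of the genotypes did not overlap. Over all tested genes 24.3% were called higher and 38.5% lower in this comparison, and 25.7% were higher without overlap. The median change of the 10 genes was 0.87, from 0.41 to 1.31, beside −0.14 over all tested genes. The share of tested genes with a smaller change ranged from 82.6% for Ush1c to 97.7% for Ezr. Leaving out any 1 library left 10 of 10 called. With TPM set relative to the summed epithelium markers, a scaling chosen after seeing the data, 9 of 10 were called higher and the median was 0.48, beside −0.47 over all tested genes; Ush1c gave 0.0086 (limma adjusted p = 0.843).

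At day 1 the picture was different and small in size. Of the 10 genes 4 were called lower in Fzd5KO (Ezr, Myo7b, Cdhr2 and Pls1) and 0 higher, where 22.8% of all tested genes were called lower and 2.13% higher. In 8 of the 10 the Fzd5KO libraries lay below all Ctrl libraries, as in 38.9% of all tested genes. Their median difference was −0.13, beside −0.14 over all tested genes. This direction rested on the scaling. Median-of-ratios scaling moved the median of all tested genes from −0.14 to 0.0098 and that of the 10 genes to 0.046, with 2 called higher (Myo1a and Ush1c) and 0 lower. Rescaling without the most abundant RNAs called 0 of 10.

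The genotype difference was itself different between the days for all 10 genes (limma interaction, day 3 minus day 1), where 25.3% of tested genes had a positive and 19.1% a negative call. The median over the 10 genes was 1.03, beside 0.0092 over all tested genes, and with the epithelium marker scaling these were 0.64 and −0.31. It was largest for Ezr at 1.49 ± 0.055 (limma adjusted p = 4.02e-09) and smallest for Ush1c at 0.42 ± 0.056 (limma adjusted p = 9.58e-05). The Ush1c call was lost with quantile normalization (0.096, limma adjusted p = 0.162) and with the epithelium marker scaling (0.035, limma adjusted p = 0.596).

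**Figure D2:**
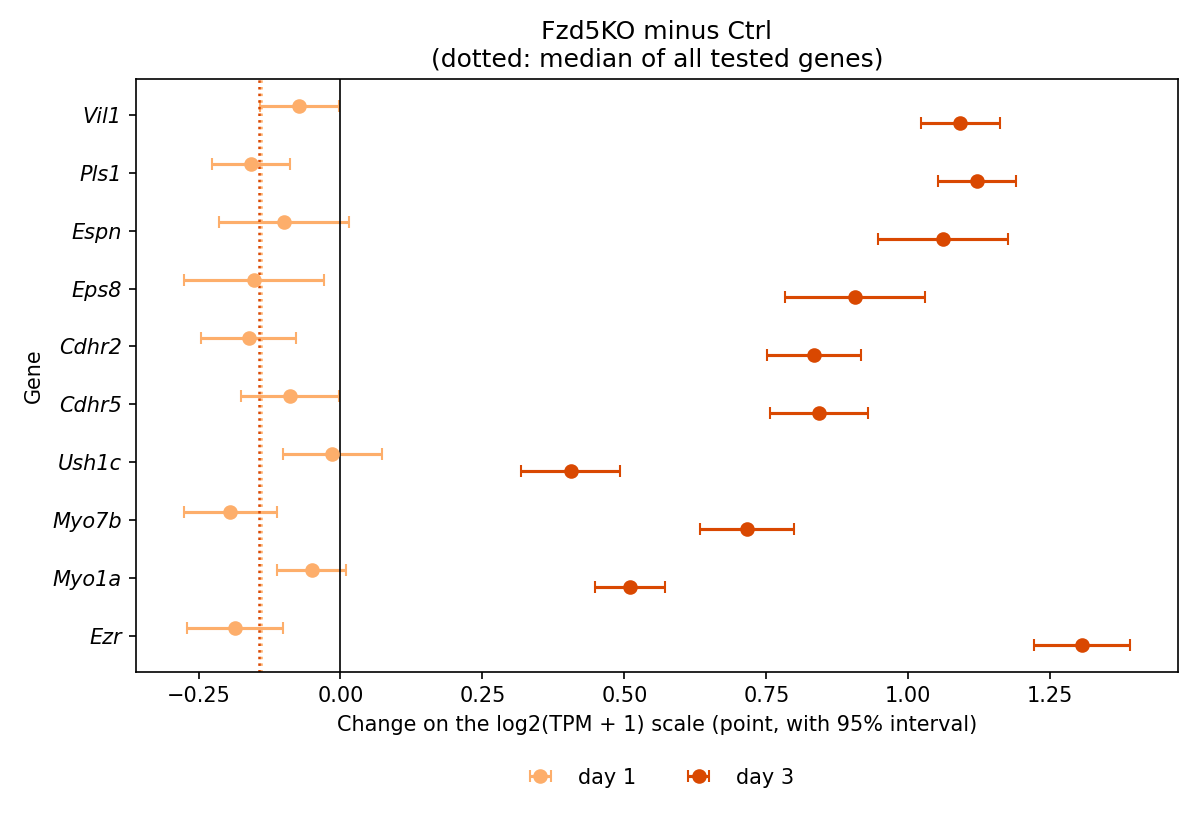
Fzd5KO minus Ctrl on the log2(TPM + 1) scale (horizontal axis) for each gene at day 1 and day 3, as the limma estimate with its 95% interval. Dotted lines, which almost coincide, mark the median of all tested genes at day 1 (−0.14) and day 3 (−0.14); day 1 points lie around them, and day 3 points lie between 0.41 and 1.31.

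Over time the genotypes went opposite ways. In Ctrl, 9 of the 10 genes were lower at day 3 than at day 1, where 11% of all tested genes were called lower and 25% higher, and the same 9 did not overlap between the days, as in 13.7% of all tested genes. Their largest fall was that of Ezr, to 0.583 times its day 1 level (−0.78, limma adjusted p = 1.04e-07), followed by Pls1 at 0.649 times (−0.62, limma adjusted p = 1.21e-07) and Vil1 at 0.678 times (−0.56, limma adjusted p = 3.10e-07). The protocadherins fell less, Cdhr2 to 0.828 times and Cdhr5 to 0.888 times, and Myo1a fell to 0.897 times. Ush1c was not called (−0.030, limma adjusted p = 0.581), and without the third Ctrl day 3 library its estimate was 0.00054. The median over the 10 genes was −0.35, beside 0.11 over all tested genes.

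In Fzd5KO all 10 genes were higher at day 3 than at day 1 without overlap, where 34.4% of all tested genes were called higher and 10.5% lower, and 39.6% were higher without overlap. The largest rise was that of Cdhr5 to 1.70 times its day 1 level (0.76, limma adjusted p = 4.06e-08), and Cdhr2 and Ezr reached 1.65 and 1.64 times. Myo1a and Ush1c rose to 1.32 and 1.31 times, and under the epithelium marker scaling these turned to −0.087 and −0.099 (both called lower). Ush1c was also not called with quantile normalization (0.060, limma adjusted p = 0.226). The median was 0.65, beside 0.11 over all tested genes, and with the epithelium marker scaling these were 0.16 and −0.28. Ctrl day 3 enters both the fall in Ctrl and the day 3 genotype difference, and Fzd5KO day 3 enters both the rise in Fzd5KO and that difference, so these are not independent observations.

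**Figure D3:**
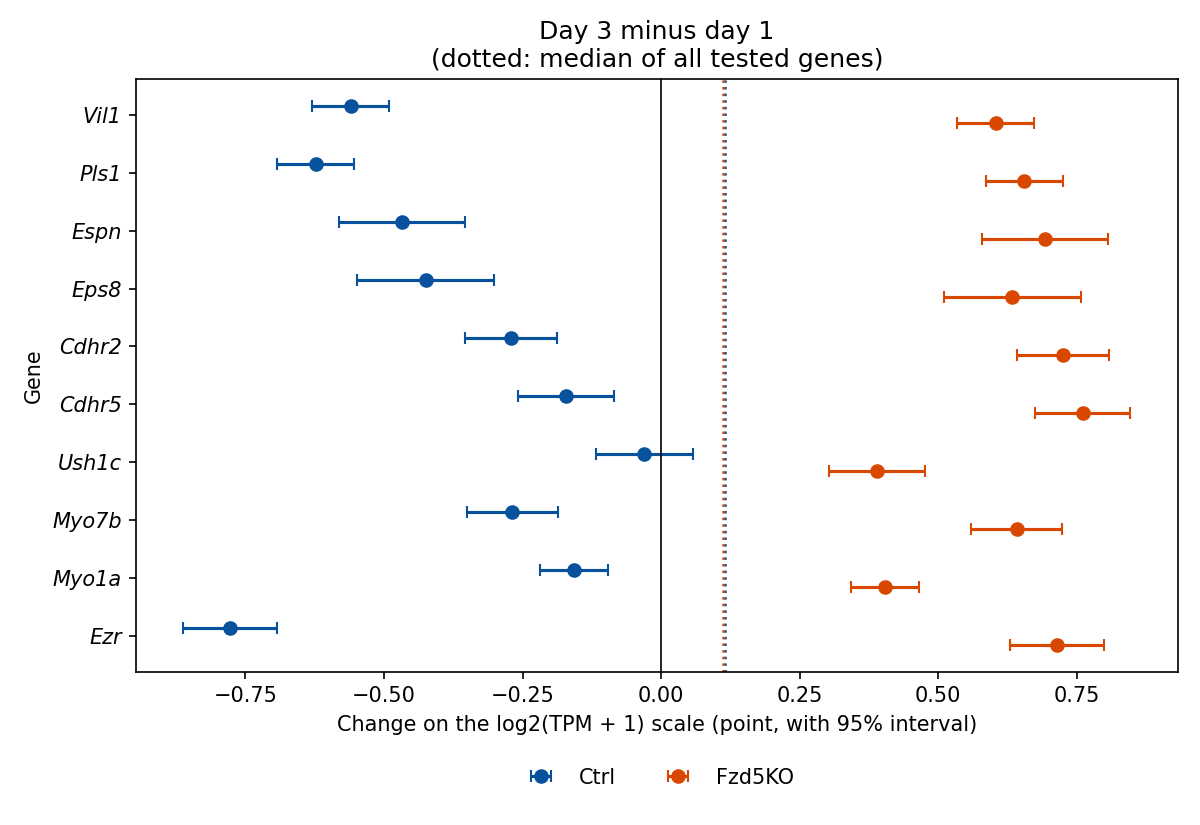
Day 3 minus day 1 on the log2(TPM + 1) scale (horizontal axis) for each gene within Ctrl and within Fzd5KO, as the limma estimate with its 95% interval. Ctrl estimates lie below 0, from −0.78 for Ezr to −0.030 for Ush1c whose interval includes 0, and Fzd5KO estimates lie above 0; the dotted lines at 0.11 mark the median of all tested genes in each genotype.

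Because the 10 genes moved by unequal amounts, their proportions to each other shifted. Vil1 made up 23.6% of their summed level in Ctrl day 1, 24.2% in Fzd5KO day 1, 21.1% in Ctrl day 3 and 23.8% in Fzd5KO day 3. Ezr took 11.0, 10.5, 8.46 and 11.1% in the same order of groups. Myo1a went the other way, at 15.2, 15.8, 17.9 and 13.6%, as did Ush1c at 3.03, 3.24, 3.91 and 2.75%. The highest group mean was 2.48 times the lowest for Ezr and 1.33 times for Ush1c. Pls1 took 14.8, 14.3, 12.7 and 14.6%. The shares of Vil1, Pls1, Ezr and Espn were smallest in Ctrl day 3. Those of Myo1a, Ush1c, Cdhr2, Cdhr5 and Myo7b were largest there, and that of Eps8 was neither. These shares were not tested.

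The summed levels of the set and of cell type markers are given side by side. The summed level of the 10 genes was 4057 to 4172 TPM in Ctrl day 1, 3767 to 3846 in Fzd5KO day 1, 3033 to 3182 in Ctrl day 3 and 5807 to 5948 in Fzd5KO day 3. Enterocyte markers (Alpi, Sis, Lct, Anpep, Fabp1, Fabp2, Apoa1 and Apoa4) summed to 21444 to 22403, 24002 to 24702, 17831 to 18896 and 38484 to 39802 TPM in the same order. At day 3, 7 of these 8 were higher in Fzd5KO, with a median change of 1.16, and Lct was not called. At day 1, 3 were higher and 4 lower. Per 100 TPM of enterocyte markers the 10 genes thus stood at 18.6 to 18.9 in Ctrl day 1, 15.6 to 15.7 in Fzd5KO day 1, 16.7 to 17.0 in Ctrl day 3 and 14.9 to 15.1 in Fzd5KO day 3. Per 100 TPM of epithelium markers, 4 of 5 of which were higher in Fzd5KO at day 3 and 1 lower (Krt18), they stood at 137.1 to 138.7, 125.0 to 128.1, 96.3 to 98.7 and 138.4 to 139.7 in the same order. Against the sum of these 8 enterocyte markers Fzd5KO was therefore below Ctrl on both days and did not rise over time. Apoa1 and Apoa4 had the highest means of the 8 in every group and so weighed most in this sum. At day 1 they stood at 5526 and 4052 TPM in Ctrl and 6677 and 6028 TPM in Fzd5KO. Fabp1 was also higher in Fzd5KO there, while Sis, Lct, Anpep and Fabp2 were lower. At day 3 Apoa1 and Apoa4 stood at 6491 and 4585 TPM in Ctrl and 10723 and 11372 TPM in Fzd5KO. The ratio thus depends on the markers summed, and it was not computed without Apoa1 and Apoa4. Its order of groups and its course over time are given for this sum only and cannot be carried over to the other enterocyte markers. Against the epithelium markers Fzd5KO stayed above Ctrl at day 3, and Fzd5KO day 3 came close to Ctrl day 1. In bulk samples more cells of a type and more RNA per cell cannot be told apart.

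Stem cell markers summed to 488 to 516 TPM in Ctrl day 3 and 35.7 to 36.6 in Fzd5KO day 3, with 4 of 4 lower. Cycling cell markers summed to 240.6 to 252 against 118 to 127 TPM (4 of 4 lower), and Paneth cell markers to 4643 to 4824 against 1869 to 2024 TPM (4 of 4 lower). Goblet cell markers, at 7314 to 7738 against 4714 to 5040 TPM, were lower in 5 of 5. At day 1, where 4 of the 10 genes were called lower, these crypt and secretory markers were lower in Fzd5KO too: stem cell markers in 4 of 4 (315 to 333 against 64.8 to 67.0 TPM), goblet in 5 of 5, and cycling and Paneth cell markers in 3 of 4 each. With median-of-ratios scaling the stem cell and goblet counts were the same. Cycling cell markers were then lower in 2 of 4, and of the 4 Paneth cell markers 1 was higher and 1 lower. Over all tested genes 24.3% were called higher and 38.5% lower at day 3, and 2.13% and 22.8% at day 1. Over time in Ctrl stem cell markers were higher in 3 of 4 and cycling cell markers in 2 of 4, while Paneth cell markers were lower in 2 of 4. Of all tested genes 25% were called higher and 11% lower there. The Paneth count rested on the scaling, with 4 of 4 lower under median-of-ratios scaling and 1 higher and 1 lower under quantile normalization. T cell markers stood at 7.66 to 11.2 TPM in Ctrl day 3 and 29.6 to 35.3 TPM in Fzd5KO day 3 (5 of 5 higher), and at 29.8 to 35.6 and 20.6 to 26.0 TPM in Ctrl and Fzd5KO at day 1. B and plasma cell markers stood at 2.66 to 3.84 against 13.6 to 14.4 TPM at day 3 (4 of 4 higher), myeloid markers at 5.69 to 7.75 against 10.4 to 11.6 TPM (2 of 3 tested higher), and erythroid markers at 199.7 to 226.8 against 54.2 to 69.0 TPM (4 of 4 lower). No marker of any list was at 0 in all 3 libraries of a group. The part of these markers' cell types in the levels of the 10 genes was not tested.

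**Figure D4:**
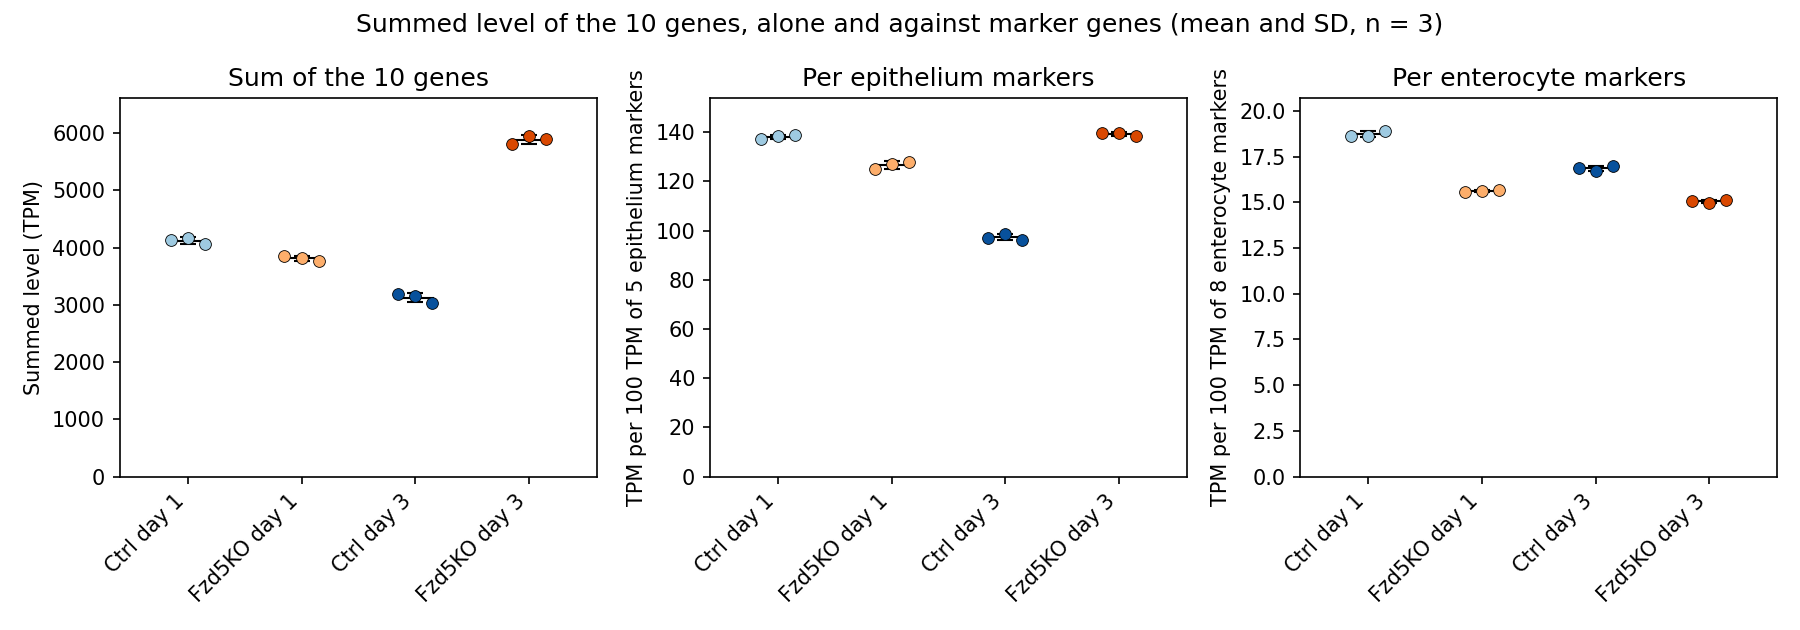
Summed level of the 10 genes in TPM (left), per 100 TPM of the 5 epithelium markers (middle) and per 100 TPM of the 8 enterocyte markers (right) in each library (points), with the mean and SD of each group. At day 3 Fzd5KO lies above Ctrl in the left and middle panels and below it in the right panel.

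Other genes of the brush border, in lists chosen with earlier results of these data known, changed less evenly. Of 13 tested microvillar actin genes, 7 were higher and 4 lower in Fzd5KO at day 3 (median 0.18), where 24.3% of all tested genes were higher and 38.5% lower. Higher members included Eps8l3, a relative of Eps8 (149.9 to 269 TPM, 0.84 ± 0.035, limma adjusted p = 3.01e-09), Cobl, an actin nucleator that acts at the base of microvilli (75.7 to 138 TPM, 0.86 ± 0.042, limma adjusted p = 1.29e-08), and Actg1, for cytoplasmic gamma actin (612 to 992 TPM, 0.70 ± 0.040, limma adjusted p = 4.50e-08). Of 11 tested linkers and scaffolds, 9 were higher and 1 lower (median 0.57). Slc9a3r1, for the scaffold EBP50 that binds ezrin, lay at 247, 243 and 230.2 TPM in Ctrl and 576, 606 and 587 TPM in Fzd5KO at day 3, 1.29 ± 0.038 higher (limma adjusted p = 2.47e-10). Stk10, for a kinase that phosphorylates ezrin-family proteins, went from 5.03 to 21.4 TPM (1.90, limma adjusted p = 3.39e-08). Slk, for a related kinase of these proteins, was the lower one of the list, from 70.1 to 48.1 TPM (−0.53, limma adjusted p = 2.88e-06). The PDZ scaffold genes Pdzk1 (0.79, limma adjusted p = 5.14e-09) and Pdzd3 (0.83, limma adjusted p = 2.88e-08) were higher too.

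Apical trafficking genes were higher in 6 of 7 at day 3 and lower in 0 (median 0.41). They were led by Rab11a, for the GTPase of apical recycling endosomes (85.6 to 174 TPM, 1.01 ± 0.052, limma adjusted p = 2.00e-08), and Stx3, for an apical membrane fusion protein (0.57, limma adjusted p = 2.58e-07). Of 11 tested genes of the terminal web, the filament meshwork in which the bundles are rooted, 7 were higher and 1 lower. Krt20, a keratin of mature epithelium, lay at 408, 402 and 387 TPM in Ctrl and 960.5, 965 and 980.3 TPM in Fzd5KO (1.28 ± 0.031, limma adjusted p = 7.14e-11), and Krt18 was lower (−0.46, limma adjusted p = 5.18e-07). Under the epithelium marker scaling the day 3 medians of the microvillar actin and terminal web lists turned to −0.21 and −0.11, and those of linkers and trafficking genes fell to 0.18 and 0.013. Krt8 and Krt18 are both epithelium markers and terminal web genes here, so the terminal web list was scaled in part by its own members. At day 1, where 2.13% of all tested genes were called higher and 22.8% lower, the counts were 1 higher and 4 lower of 13 microvillar actin genes, 0 and 4 of 11 linkers, 0 and 3 of 7 trafficking genes, and 3 and 4 of 11 terminal web genes. These day 1 calls rested on the scaling. With median-of-ratios scaling the counts were 3 and 1, 1 and 0, 1 and 0, and 6 and 0 in the same order of lists. Over time in Ctrl 25% of tested genes were called higher and 11% lower. Calls were 4 higher and 5 lower of 13 microvillar actin genes and 3 and 5 of 11 linkers. Trafficking genes were 1 and 4 of 7, terminal web genes 4 and 2 of 11. Enterocyte markers were 2 and 6 of 8 (median −0.41, beside −0.35 for the 10 genes). In Fzd5KO 34.4% were called higher and 10.5% lower. There the counts were 8 and 1, 9 and 0, 6 and 0, and 9 and 1 in the same order of lists. Enterocyte markers were 7 and 1 (median 0.67, beside 0.65 for the 10 genes). Neither course over time was thus particular to the 10 genes.

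Relatives of the 10 genes from the same families did not move with them in every case. These relatives were picked by family from the fixed lists, outside the rule for named genes and with values known. At day 3 Avil, for advillin, a villin relative known from sensory cells, was lower in Fzd5KO by −1.55 (limma adjusted p = 1.93e-06) where Vil1 was higher by 1.09. Pls3 (−0.85, 95% interval −1.09 to −0.62) and Lcp1 (0.67, 0.42 to 0.92), the other plastins, the second of them known from leukocytes, fell on opposite sides of 0 beside Pls1 at 1.12 (1.05 to 1.19). Pls3 reached 1 TPM in Ctrl libraries only and so passed the filter only through the groups where it was high. Its day 3 means were 2.03 TPM in Ctrl and 0.673 TPM in Fzd5KO, and its estimate is no evidence of a divergence from Pls1. Eps8l1 was lower (−0.63, −0.93 to −0.34) and Eps8l2 higher (0.58, 0.51 to 0.66) beside Eps8 at 0.91 (0.78 to 1.03); the Eps8l1 call was lost with quantile normalization. Myo1d, of the class of Myo1a, lay at 0.20 (0.12 to 0.28) beside Myo1a at 0.51 (0.45 to 0.57), and under the epithelium marker scaling it was called lower, while Myo1e was higher by 0.57 (0.45 to 0.69).

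Myo7a, whose protein takes the place of myosin 7b in the tip links of inner ear stereocilia, lay at 0.040 (−0.052 to 0.13) at day 3, while Myo7b lay at 0.72 (0.63 to 0.80). Its sign depended on the scaling, at 0.19 and called higher with median-of-ratios scaling and −0.11 with quantile normalization. Avil, Pls3, Msn and Eps8l1 each had group means of at most 9.30 TPM, so these contrasts set low genes beside abundant ones. Msn, for the ezrin relative moesin, was higher by 1.10 (0.81 to 1.39), as was Ezr by 1.31 (1.22 to 1.39). Of 8 genes of hair cell stereocilia, 2 passed the filter on low values (Myo7a and Whrn). No test of the difference between relatives was run.

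**Figure D5:**
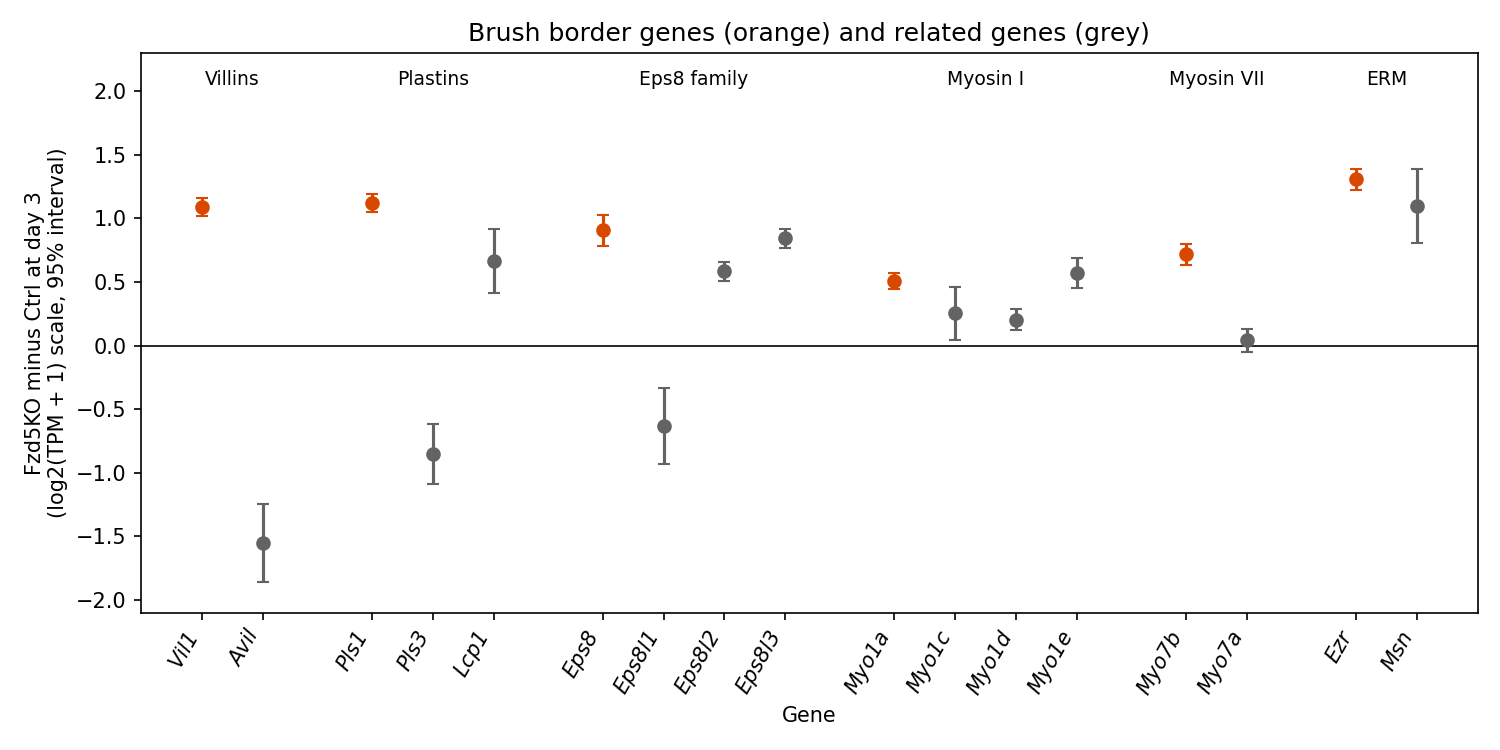
Fzd5KO minus Ctrl at day 3 on the log2(TPM + 1) scale (vertical axis) for members of 6 protein families, with the 95% interval of the limma estimate; orange points are among the 10 brush border genes and grey points are relatives. Avil, Pls3 and Eps8l1 lie below 0, and the orange points all lie above it.

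The genes whose profile over the 12 libraries lay nearest to the mean profile of the 10 were Fgl2, Eps8l3, Cs, Gnai3 and Trim12a. Likeness was the root mean square difference between log2(TPM + 1) values centred on each gene's own mean, over 8999 genes with a mean of at least 5 TPM, and it came to 0.031 for Fgl2, 0.036 for Eps8l3 and Cs, and 0.038 for Gnai3 and Trim12a. Eps8 was the nearest of the 10 genes to their own mean at 0.048, and Ezr and Ush1c were the farthest at 0.175 and 0.176. Cs, for the mitochondrial enzyme citrate synthase, stood at 267, 244, 215 and 394 TPM in Ctrl day 1, Fzd5KO day 1, Ctrl day 3 and Fzd5KO day 3. The order of its groups was that of the 10 genes, as it was for the other 4. These genes were chosen for their likeness to that profile, so the shared order follows from the choice.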

How the data were processed

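Jejunal epithelial RNA had been made into stranded libraries from total RNA, as the labels' protocols state. Tools listed by the submitters' processing notes are bcl2fastq 2.18, STAR 2.7.3a and RSEM, with build mm10 (annotation and strand setting not given in the sources used here). For 55421 genes in 12 libraries the authors deposited TPM, so depth is unknown. Coordinates are from GENCODE release M21, counted from 1.

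The 14510 genes reaching 1 TPM in 3 or more libraries entered limma 3.58.1 (R 4.3.3) as log2(TPM + 1), with 4 group means, a shared spread and an intensity trend. Benjamini-Hochberg adjustment ran across these genes within each contrast. The fit was tested on simulated data. Python 3.11.15 and matplotlib 3.10.9 made the figures.

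The members and lists were chosen with earlier results of these data known. From the list of linkers and scaffolds 1 gene is not reported here and was left out of the list's counts. Named were all 10 members, Fzd5, up to 4 called genes per list and contrast by smallest p, and the 5 nearest profiles; predicted genes were left out of naming. Alternatives were pseudocounts of 0.1 and 5, other filters and scalings, no trend, a replicate block, only the groups compared, and each library left out.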

Additional observations from a re-analysis of the deposited data

Results flagged for a closer look

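For all 10 genes the difference between Fzd5KO and Ctrl was not the same at day 1 and day 3, by the limma interaction test, adjusted over all tested genes. The difference between the days' effects, on the log2 scale, was 1.16 for Vil1 (limma adjusted p = 5.65e-09), 1.28 for Pls1 (limma adjusted p = 2.84e-09), 1.16 for Espn (limma adjusted p = 2.29e-07) and 1.06 for Eps8 (limma adjusted p = 9.07e-07), the genes of the actin bundle. For the adhesion complex it was 0.996 for Cdhr2, 0.932 for Cdhr5, 0.910 for Myo7b and 0.420 for Ush1c, and for the membrane linkers 1.49 for Ezr and 0.561 for Myo1a. Each was positive with quantile normalization, median-of-ratios scaling, the removal of abundant RNAs and with the epithelium marker scaling. Ush1c alone lost its call, with quantile normalization and with the epithelium marker scaling. None was lost by leaving out a library.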

How the results depend on the processing

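At day 3, 229 of 230 estimates over genes and alternatives kept their direction and call, and all 10 genes were called under every alternative but the epithelium marker scaling. With the other filters, no trend, the replicate block or only the groups compared, an estimate cannot change, and only its p can. The same holds where the library left out is of a group not compared. Direction was thus fixed in advance for part of each tally here. The interaction kept 218 of 220, the time change in Ctrl 227 of 230 and that in Fzd5KO 227 of 230. Day 1 kept 198 of 230. There the number called was 4, against 2 with median-of-ratios scaling, 0 without abundant RNAs and 7 with the epithelium marker scaling, chosen after seeing the data, which gave 10 (8 higher, 2 lower) for the time change in Fzd5KO. With each library left out the counts were 4 to 5 at day 1, 10 at day 3, 10 for the interaction, 9 over time in Ctrl and 10 in Fzd5KO.

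Day 1 estimates turned positive with quantile normalization for Myo1a (0.011), Ush1c (0.076) and Espn (0.023). Under median-of-ratios scaling they turned for Vil1 (0.10), Myo1a (0.12), Cdhr2 (0.013), Cdhr5 (0.085), Ush1c (0.16), Espn (0.072), Eps8 (0.020) and Pls1 (0.017). Without abundant RNAs they turned for Vil1 (0.041), Myo1a (0.062), Cdhr5 (0.024), Ush1c (0.098) and Espn (0.012). With each library left out, Ush1c ran from −0.043 to 0.013 at day 1 and from −0.059 to 0.00054 over time in Ctrl. The cause was not tested. With the epithelium marker scaling the time change in Fzd5KO turned to −0.087 for Myo1a and −0.099 for Ush1c. Eps8 at day 1 was called without Ctrl day 3 replicate 1 (limma adjusted p = 0.0402) or replicate 3 (limma adjusted p = 0.0172).

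Over all tested genes the split of higher and lower calls was 309 and 3313 at day 1, against 846 and 908 (quantile normalization), 1386 and 830 (median of ratios) and 701 and 1138 without abundant RNAs. At day 3 it was 3529 and 5584, against 4637 and 4182 with median-of-ratios scaling and 1761 and 9436 with the epithelium marker scaling. For the interaction it was 3665 and 2769, against 2773 and 4145 without abundant RNAs and 1878 and 6441 with the epithelium marker scaling. Over time in Ctrl it was 3633 and 1603, against 2223 and 2299 (quantile normalization), 1835 and 2504 (median of ratios) and 2033 and 2300 with the epithelium marker scaling. In Fzd5KO it was 4985 and 1525, against 3033 and 2919, 3557 and 2771 and 1168 and 7500 with the same 3, and 2987 and 3229 without abundant RNAs.

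Deviations of same-numbered libraries correlated between −0.069 and 0.033, so no pairing by replicate number was seen in the values. Whether such libraries shared an animal or a preparation cannot be read from this. With the replicate block 5 genes were called at day 1 in place of 4, Cdhr5 being added (limma adjusted p = 0.0424), and the other counts were 10, 10, 9 and 10 as before. TPM give no depth, so no counting error could be set beside low values.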
